A study of Mus musculus with 4 samples.

Results

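Expression of 40 genes that mark macrophages, leukocytes in general and neutrophils was followed in mouse quadriceps, the large extensor muscle of the thigh. The genes were chosen by name, as known identity genes of these cells, but with earlier results of these data known. Counts and medians over them are therefore descriptions. Each gene was read from the probe set that carried its symbol alone and had the highest mean over all arrays. All 40 were present among the 22180 genes named on the array, and 0 of them had more than 1 such probe set. The samples were 2 NF90-NF45 double transgenic mice (dbTg) and 2 wild-type mice (WT), with 1 array of total RNA each. NF90 binds double-stranded RNA and works in a complex with its partner NF45. Both dbTg mice were 16 weeks old, WT 1 was 17 to 18 weeks old and WT 2 was 16 weeks old. Replicate 1 of each genotype was male and replicate 2 was female. The sources used here do not give the promoter that drives the transgenes, the strain or the number of founder lines.

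Macrophages settle in muscle as resident cells, mostly in its connective tissue, and further macrophages arise there from blood monocytes after injury. They depend on the receptor of colony-stimulating factor 1, Csf1r, and on the transcription factor PU.1, encoded by Spi1. They engulf dead fibres through pattern recognition receptors and integrins, digest them in lysosomes and influence the growth of new fibres. Pan-leukocyte genes such as Ptprc are shared by all nucleated blood cells, whereas the calgranulins S100a8 and S100a9 are abundant in neutrophils.

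The values are robust multi-array average (RMA) levels on the log2 scale, so a difference of 1 is a 2-fold change. They compare groups for one gene, not one gene with another. Ilf2, the gene of NF45, read 10.36 and 10.16 in dbTg, against 5.03 and 5.04 in WT, as its genotype label states. The tissue label was checked only roughly, since levels of different genes are not on one scale. For 12 genes of muscle fibres the mean level was 10.07 and 10.01 in dbTg, against 9.96 and 10.17 in WT. Their lowest single reading was 7.83, and 0 passed the test (1 higher at an unadjusted p under 0.05). Across the 13308 tested genes, Pearson's r was 0.981 between the dbTg arrays, 0.966 between the WT arrays and 0.946 to 0.953 between genotypes (a correlation across genes, not across replicates). With 2 arrays per group, precision is limited for each gene.

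A large part of the macrophage and pan-leukocyte genes rose in dbTg muscle. Of the neutrophil pair only S100a9 was tested, near the filter level, and it was not called. Limma called 15 of the 39 tested members higher (Benjamini-Hochberg adjusted p under 0.05 over all tested genes), against 2.01% of all tested genes. Limma called 0 members lower, against 0.203% of all tested genes. At an unadjusted p under 0.05, 27 members were higher, against 14.0% of all tested genes, and 1 was lower, against 4.64%. The called members differed by 1.26 to 3.76, or 2.39-fold to 13.5-fold. Their groups lay apart by a gap of 1.01 to 3.32 between the lowest dbTg and the highest WT array. Over the 39, the median log2 difference was 1.00 and the quartiles were 0.69 and 1.87. Over all tested genes the median was 0.089 and the quartiles were -0.13 and 0.35. Both dbTg arrays lay above both WT arrays for 32 of the 39, against 33.7% of all tested genes.

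S100a8 alone was not tested, since its mean over the arrays was below 1.48, the level that excluded the dimmest 40% of genes. Clec7a, Itgax, Cd48 and Vav1 had WT means below that level and passed through their dbTg arrays, so they were bound to be higher there. Without the filter all 40 were tested, and 11 were called, Clec7a among them, against 0.744% of all genes. In RNA from whole muscle, more cells of a type and more RNA per cell cannot be told apart. The calls rested on having both dbTg arrays. Without dbTg replicate 1 or without dbTg replicate 2, limma called 0 of the 39 (26 and 24 higher at an unadjusted p under 0.05), and 0.0301% of all tested genes. After quantile normalization it called 9 of the 39, and 0.902% of all tested genes. With WT replicate 1 left out 22 of the 39 were called, against 4.58% of all tested genes, and with WT replicate 2 left out 17, against 4.46%.

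**Figure D1:**
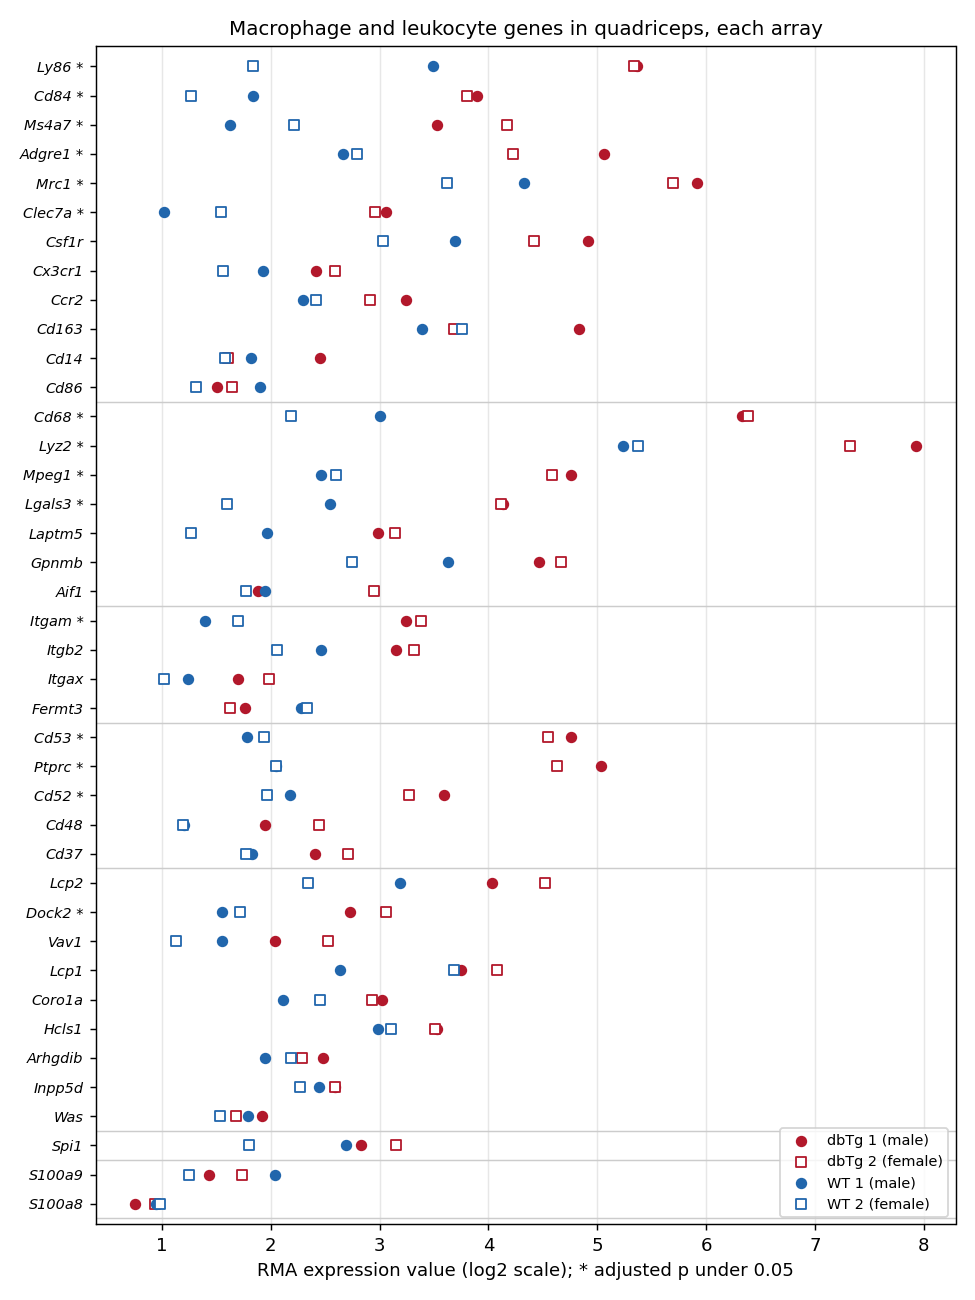
RMA level on the log2 scale (horizontal axis) of each of the 40 genes on each of the 4 arrays, with circles for males, squares for females, red for dbTg and blue for WT. Lines part the roles (from the top: surface receptors, lysosome and phagocytosis, integrins, pan-leukocyte surface, signalling and actin, PU.1, neutrophil pair), and stars mark the 15 genes with an adjusted p under 0.05. For Cd68 the dbTg arrays read 6.33 and 6.38, against 3.01 and 2.19 in WT, while the S100a9 values of the genotypes overlap.

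The promoters of 3 called members with the smallest p-values of the group are shown: Cd68, Cd53 and Ptprc. A promoter was shown only if it held the motif marked below, so a match in each was fixed in advance. Each sequence is the RefSeq window on GRCm38.p6 of 300 bases, 250 before the annotated start and 50 after, printed 5′ to 3′ on the gene's strand. Capitals mark GAGGAA, a core of the sites that PU.1 is known to bind, or its reverse complement.
Cd68 promoter, chr11:69666121-69666420, minus strand: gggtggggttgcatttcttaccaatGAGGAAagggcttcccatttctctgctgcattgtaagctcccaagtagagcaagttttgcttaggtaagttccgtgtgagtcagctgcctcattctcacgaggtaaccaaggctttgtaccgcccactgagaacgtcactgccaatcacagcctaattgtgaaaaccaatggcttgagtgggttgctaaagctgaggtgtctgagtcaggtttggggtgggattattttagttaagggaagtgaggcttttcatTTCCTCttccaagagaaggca
Cd53 promoter, chr3:106790100-106790399, minus strand: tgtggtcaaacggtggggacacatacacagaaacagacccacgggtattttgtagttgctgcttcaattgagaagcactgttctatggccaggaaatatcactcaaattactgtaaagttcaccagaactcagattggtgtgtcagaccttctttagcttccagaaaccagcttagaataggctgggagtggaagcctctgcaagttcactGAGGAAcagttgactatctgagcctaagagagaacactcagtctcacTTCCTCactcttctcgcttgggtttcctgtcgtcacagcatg
Ptprc promoter, chr1:138175256-138175555, minus strand: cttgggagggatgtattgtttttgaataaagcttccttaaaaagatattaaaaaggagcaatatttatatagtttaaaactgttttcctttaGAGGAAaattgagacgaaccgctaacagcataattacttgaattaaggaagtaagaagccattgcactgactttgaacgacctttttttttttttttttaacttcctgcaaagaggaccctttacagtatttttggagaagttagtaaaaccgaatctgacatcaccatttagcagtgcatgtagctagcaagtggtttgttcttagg
The Cd68 window holds GAGGAA 225 bases before the start and its reverse complement 29 bases after it. In the Cd53 window the same letters stand 39 bases before the start, with the reverse complement 8 bases after it. Ptprc has 1 match, 158 bases before the start. Windows were at hand for 33 of the 40 members, and 18 of these, 54.5%, held a match on either strand in any of their windows. The share was 31.3% over all 27025 genes with a window and 28.3% over all 32851 windows. A match of 6 letters describes the sequence only.

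Among the proteins of the lysosome and of phagocytosis, 4 of 7 rose, and the others had positive differences that did not pass the test. Of all tested genes, 2.01% were called higher and 60.5% had positive differences. Cd68 encodes macrosialin, a glycoprotein of late endosomes and lysosomes in macrophages. It read 6.33 and 6.38 in dbTg, against 3.01 and 2.19 in WT. The dbTg arrays lay close together, the WT arrays apart from each other, and the difference was 3.76 (SE 0.29, adjusted p = 0.00335), or 13.5-fold. Lyz2, the lysozyme M of myeloid cells, read 7.93 and 7.33 in dbTg, against 5.24 and 5.38 in WT. It was already well measured in WT muscle and rose by 2.32 (SE 0.23, adjusted p = 0.00801), although its probes were not checked against its close paralogue Lyz1. Mpeg1, a pore-forming protein of the phagosome, read 4.76 and 4.58 in dbTg, against 2.46 and 2.60 in WT. It had the smallest error of the 4 and rose 4.40-fold (2.14, SE 0.21, adjusted p = 0.00801). Lgals3, the galactose-binding lectin galectin-3, read 4.14 and 4.11 in dbTg, against 2.54 and 1.60 in WT. Its dbTg arrays nearly coincided while its WT arrays did not, and it rose by 2.06 (SE 0.33, adjusted p = 0.0370). After quantile normalization Lgals3 lost its call (adjusted p = 0.0702).

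The lysosomal membrane protein gene Laptm5 fell just short of the threshold. It read 2.99 and 3.14 in dbTg, against 1.96 and 1.27 in WT (difference 1.45, adjusted p = 0.0555). Gpnmb, a glycoprotein of lipid-laden and phagocytic macrophages, read 4.47 and 4.67 in dbTg, against 3.63 and 2.75 in WT (difference 1.38, adjusted p = 0.0797). Without WT replicate 1, the higher WT array for these genes, the differences were 1.79 for Laptm5 and 1.82 for Gpnmb. Without WT replicate 2 they were 1.10 and 0.94, in the same order. Aif1 encodes IBA1, an actin-binding protein widely used to stain macrophages. It read 1.89 and 2.95 in dbTg, against 1.95 and 1.77 in WT. Only the female dbTg array stood above the others for Aif1, and the groups overlapped (difference 0.56, 95% interval -0.28 to 1.39).

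Of the 12 surface receptors, 6 rose, 5 had positive differences without passing the test, and Cd86 had a small negative one. The shares over all tested genes were 2.01% called higher and 60.5% positive. Ly86, also called MD-1, the partner of the Toll-like receptor homologue RP105, read 5.36 and 5.34 in dbTg, against 3.49 and 1.84 in WT. The WT arrays were far apart for this gene, so its 6.43-fold difference has a wide error (2.68, SE 0.49, adjusted p = 0.0486). Leaving out WT replicate 2 gave 1.86 and leaving out WT replicate 1 gave 3.51, and its call was lost after quantile normalization (adjusted p = 0.0840). Cd84, an adhesion receptor of the SLAM family, read 3.90 and 3.80 in dbTg, against 1.84 and 1.27 in WT. It rose 4.90-fold (2.29, SE 0.26, adjusted p = 0.0137). Adgre1 encodes EMR1, a classical surface marker of mouse macrophages. It read 5.06 and 4.23 in dbTg, against 2.66 and 2.79 in WT. Here the dbTg arrays spread more than the WT arrays, and the difference was 1.92 (SE 0.30, adjusted p = 0.0357). Its adjusted p was 0.0651 after quantile normalization.

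Mrc1, the mannose receptor CD206 of tissue macrophages, read 5.91 and 5.70 in dbTg, against 4.33 and 3.62 in WT. It rose 3.55-fold (1.83, SE 0.27, adjusted p = 0.0274). Ms4a7, a 4-pass membrane protein of macrophages, read 3.53 and 4.17 in dbTg, against 1.63 and 2.22 in WT. The female was the higher animal in both genotypes for Ms4a7, and the gene rose by 1.93 (SE 0.31, adjusted p = 0.0394, and 0.0742 after quantile normalization). Clec7a, the beta-glucan receptor dectin-1, read 3.06 and 2.96 in dbTg, against 1.01 and 1.54 in WT. It rose by 1.73 (SE 0.24, adjusted p = 0.0263) above a WT mean under the filter level.

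Csf1r, the receptor through which macrophages receive their survival signal, did not pass the test. It read 4.91 and 4.42 in dbTg, against 3.70 and 3.03 in WT, so the groups did not overlap (difference 1.30, SE 0.29, adjusted p = 0.0797). Without WT replicate 1, the higher WT array for this gene, the difference was 1.64, and without WT replicate 2 it was 0.97. Cx3cr1, the fractalkine receptor typical of resident and patrolling cells, read 2.41 and 2.59 in dbTg, against 1.93 and 1.56 in WT (difference 0.75, adjusted p = 0.141). Ccr2, which draws monocytes from the blood, read 3.24 and 2.91 in dbTg, against 2.30 and 2.42 in WT (difference 0.72, adjusted p = 0.161). For both chemokine receptors the dbTg arrays lay above the WT arrays, as they did for 33.7% of all tested genes.

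The groups overlapped for the remaining 3 receptors. Cd163, the haemoglobin scavenger receptor, read 4.84 and 3.68 in dbTg, against 3.39 and 3.76 in WT. The male dbTg array alone stood out for it (difference 0.69, 95% interval -0.22 to 1.59). Cd14, the co-receptor for bacterial lipopolysaccharide, read 2.45 and 1.61 in dbTg, against 1.82 and 1.58 in WT (difference 0.33, 95% interval -0.39 to 1.05). Cd86, a costimulatory ligand for T cells, read 1.51 and 1.65 in dbTg, against 1.90 and 1.31 in WT. Its difference was -0.032, with a 95% interval of -0.60 to 0.53.

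**Figure D2:**
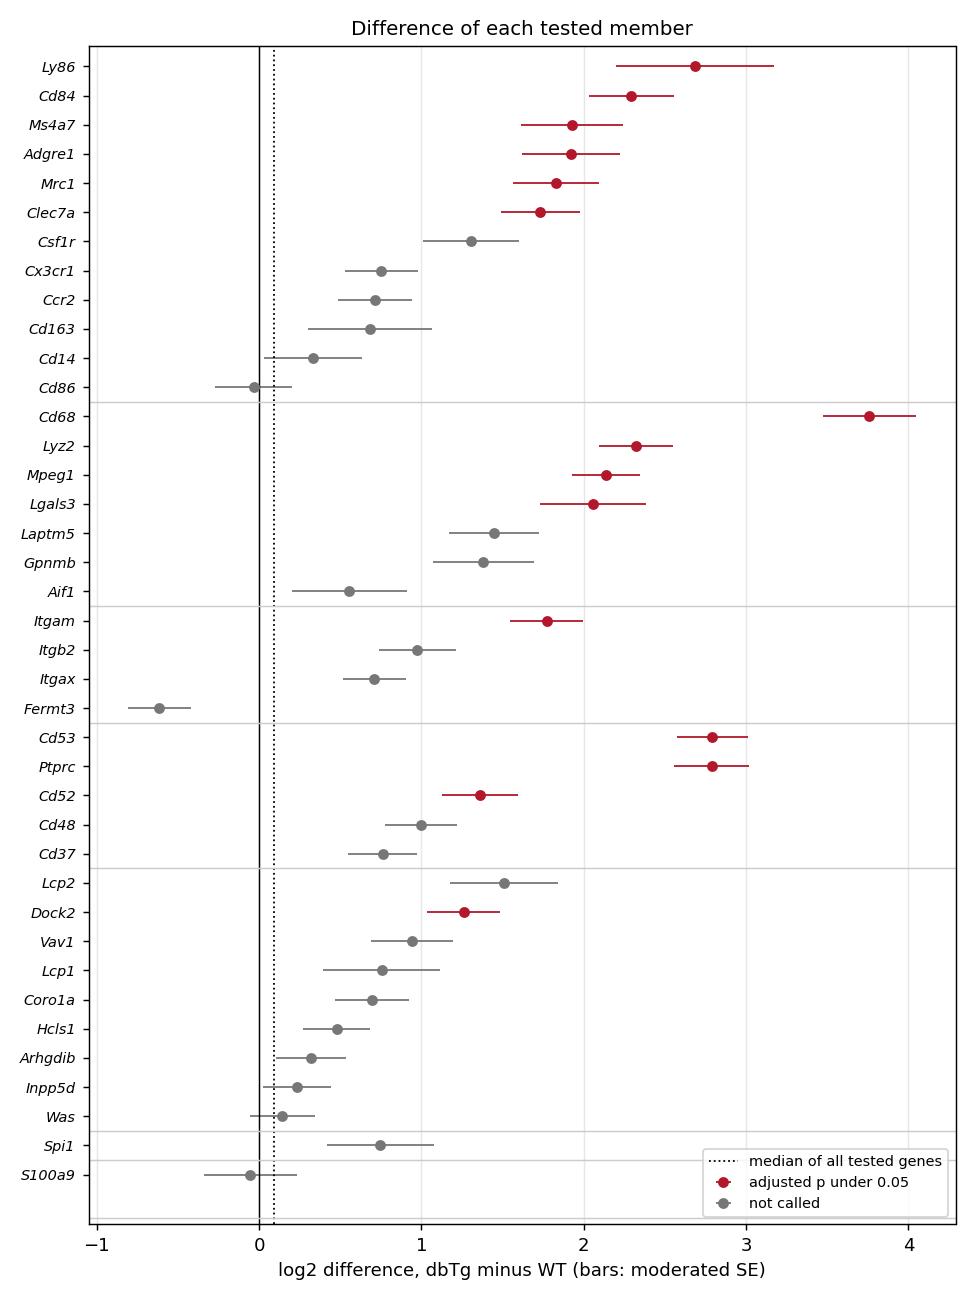
Log2 difference, dbTg minus WT (horizontal axis), of the 39 tested genes in the same role order, with bars for limma's moderated SE, red for an adjusted p under 0.05 and grey for genes not called. The dotted line is the median of all tested genes, 0.089. Cd68 stands farthest right at 3.76 and Fermt3 farthest left at -0.61.

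Of the 5 pan-leukocyte surface genes, 3 rose, against 2.01% of all tested genes, and for all 5 the dbTg arrays lay above the WT arrays. The same order held for 33.7% of all tested genes, and Cd48 had a WT mean under the filter level. Cd53, a tetraspanin of leukocytes, read 4.75 and 4.54 in dbTg, against 1.78 and 1.94 in WT. It rose 6.93-fold (2.79, SE 0.22, adjusted p = 0.00353). Ptprc encodes CD45, the tyrosine phosphatase that marks all nucleated blood cells. It read 5.03 and 4.63 in dbTg, and 2.05 on each WT array. Its difference of 2.79 (SE 0.23, adjusted p = 0.00444) almost equalled that of Cd53. Cd52, a small glycosylphosphatidylinositol-anchored antigen, read 3.59 and 3.27 in dbTg, against 2.18 and 1.96 in WT. It rose 2.57-fold (1.36, SE 0.23, adjusted p = 0.0431, and 0.0756 after quantile normalization). Cd48, another member of the SLAM family, read 1.95 and 2.44 in dbTg, and 1.20 on each WT array. It was not called (difference 1.00, adjusted p = 0.0764). Cd37, a tetraspanin best known from B cells, read 2.41 and 2.71 in dbTg, against 1.83 and 1.77 in WT (difference 0.76, adjusted p = 0.125).

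Itgam was the integrin gene that rose. It encodes CD11b, the alpha chain of complement receptor 3, and read 3.25 and 3.38 in dbTg, against 1.39 and 1.70 in WT. The difference was 1.77 (SE 0.22, adjusted p = 0.0196), or 3.41-fold. Itgb2, the common beta chain CD18 of the leukocyte integrins, read 3.15 and 3.31 in dbTg, against 2.46 and 2.06 in WT (difference 0.97, adjusted p = 0.0929). Its difference was 1.17 without WT replicate 1, the higher WT array for it, and 0.78 without WT replicate 2. Itgax, the alpha chain CD11c of dendritic cells and some macrophages, read 1.70 and 1.98 in dbTg, against 1.24 and 1.02 in WT (difference 0.71, adjusted p = 0.116). Fermt3, the integrin activator kindlin-3 of blood cells, differed in the other direction. It read 1.76 and 1.62 in dbTg, against 2.28 and 2.33 in WT. Both dbTg arrays lay below both WT arrays for Fermt3, which 16.3% of all tested genes did, and it was not called (difference -0.61, 95% interval -1.08 to -0.15, adjusted p = 0.157).

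Of the 9 signalling and actin genes of blood cells, 1 rose, against 2.01% of all tested genes, and their median difference was 0.70. All of the 9 differences were positive, as were 60.5% of those of all tested genes. Dock2, the Rac activator of leukocyte migration, was the called gene. It read 2.72 and 3.06 in dbTg, against 1.55 and 1.71 in WT (difference 1.26, SE 0.22, adjusted p = 0.0461, and 0.0756 after quantile normalization). Lcp2, the adaptor SLP-76, read 4.03 and 4.52 in dbTg, against 3.19 and 2.35 in WT. Its difference of 1.51 exceeded that of Dock2, but its arrays spread more (SE 0.33, adjusted p = 0.0757). The Lcp2 difference was 1.93 without WT replicate 1, the higher WT array, and 1.09 without WT replicate 2. Vav1, an exchange factor downstream of immune receptors, read 2.04 and 2.52 in dbTg, against 1.55 and 1.12 in WT (difference 0.94, adjusted p = 0.113). It differed by 1.16 without WT replicate 1, again the higher WT array, and by 0.73 without WT replicate 2. Lcp1, the actin bundler L-plastin, read 3.75 and 4.08 in dbTg, against 2.63 and 3.69 in WT. The WT arrays of Lcp1 lay far apart, and the difference of 0.75 became 1.28 without WT replicate 2 (adjusted p = 0.0306) and 0.23 without WT replicate 1 (adjusted p = 0.665).

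The other members of this role differed by 0.14 to 0.70, and 0 of them were called. Coro1a, the actin regulator coronin-1A, differed by 0.70 (adjusted p = 0.171) and the cortactin relative Hcls1 by 0.48 (adjusted p = 0.279). Arhgdib, a GDP dissociation inhibitor of blood cells, differed by 0.32 (95% interval -0.19 to 0.83). Inpp5d, the inositol phosphatase SHIP1, differed by 0.23 (95% interval -0.27 to 0.73). Was encodes the Wiskott-Aldrich syndrome protein, which triggers actin branching. Its groups overlapped, with 1.92 and 1.68 in dbTg, against 1.79 and 1.53 in WT (difference 0.14, 95% interval -0.34 to 0.62).

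Spi1, the gene of PU.1, read 2.83 and 3.15 in dbTg, against 2.69 and 1.80 in WT. The groups did not overlap, but by a gap of only 0.14, and the gene was not called (difference 0.75, 95% interval -0.041 to 1.53, adjusted p = 0.288). Without WT replicate 1 its difference was 1.19 and it was called (adjusted p = 0.0424), whereas without WT replicate 2 it was 0.30 (adjusted p = 0.597).

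S100a8 and S100a9 form the heterodimer calprotectin. S100a8 read 0.75 and 0.94 in dbTg, against 0.95 and 0.98 in WT, all under the filter level. S100a9 read 1.44 and 1.73 in dbTg, against 2.03 and 1.25 in WT. The lowest and the highest value of S100a9 were both from WT mice (difference -0.056, 95% interval -0.74 to 0.63, adjusted p = 0.945). Of 12 further neutrophil genes, 9 were below the filter level and 0 of the other 3 were called (1 lower at an unadjusted p under 0.05). The granule enzyme gene Mmp9 differed by -0.49 (adjusted p = 0.185) and the chemokine receptor gene Cxcr2 by -0.54 (adjusted p = 0.320).

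The mice of one sex were also compared pair by pair, with 1 dbTg and 1 WT animal each. The median difference of the tested members was 0.94 in the male pair and 1.35 in the female pair, and 34 of the 39 were positive in both. Over all tested genes the medians were 0.098 in the male pair and 0.092 in the female pair. The difference of the group means was positive for 60.5% of all tested genes, and the share positive in both pairs was not counted. Ly86 differed by 1.87 in the male pair and 3.50 in the female pair, Lcp2 by 0.84 and 2.18, and Spi1 by 0.14 and 1.36, in the same order. Adgre1 had the opposite order, with 2.41 in the male pair and 1.44 in the female pair. With 1 animal of each genotype per sex, these differences between pairs were not tested.

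**Figure D3:**
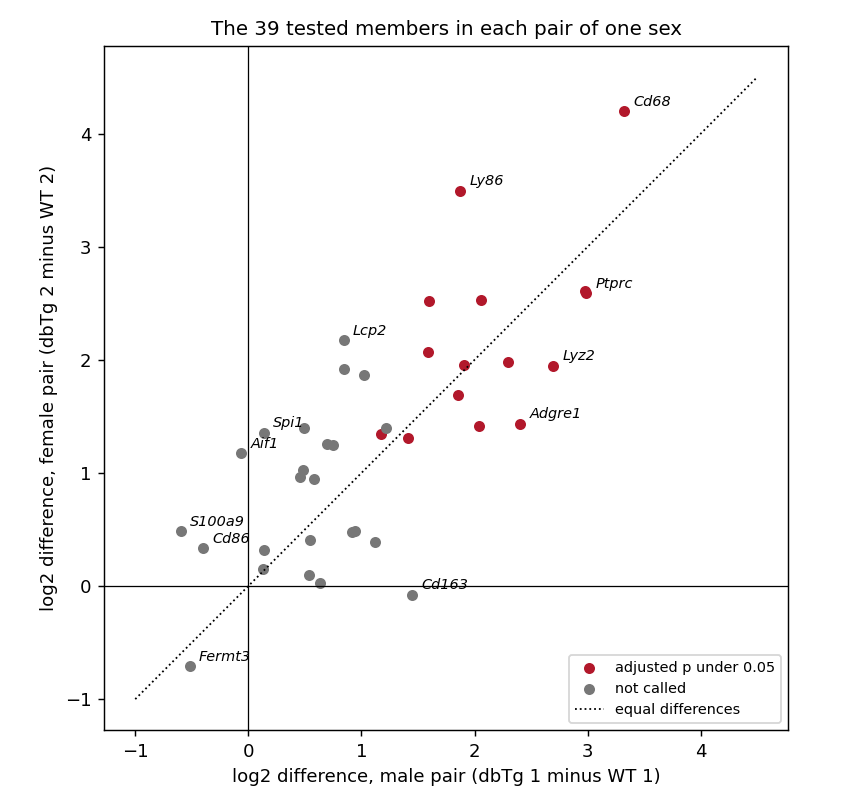
Log2 difference of the 39 tested genes in the male pair (horizontal axis) and in the female pair (vertical axis), with red for genes with an adjusted p under 0.05 and the dotted line for equal differences. The 15 red points lie above 1 in both pairs, and Cd163, Cd86, Aif1 and S100a9 lie in the quadrants where the pairs differ in sign.

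Of 12 further named genes of the CSF1 axis and of myeloid transcription factors, 2 rose, against 2.01% of all tested genes. At an unadjusted p under 0.05, 4 of the 12 were higher, those 2 included, against 14.0% of all tested genes. Runx1, a blood cell factor that muscle fibres also express after denervation, read 5.06 and 5.10 in dbTg, against 2.43 and 2.17 in WT, and rose 6.86-fold (2.78, SE 0.21, adjusted p = 0.00322). Irf8, the interferon regulatory factor of monocytes, read 2.09 and 2.02 in dbTg, against 1.07 and 0.80 in WT (difference 1.12, adjusted p = 0.0391, and 0.113 at a difference of 0.63 with the mean of its probe sets). Its WT mean of 0.93 was under the filter level, so it was tested only through its dbTg arrays, and without the filter it was not called (adjusted p = 0.0574). The ligands of Csf1r were not called, with differences of 0.13 for Csf1 (adjusted p = 0.896) and 0.18 for Il34 (adjusted p = 0.715), both chosen after their values were seen.

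Lists for resident-type macrophages, monocytes and repair macrophages had 1 call each, beside 2.01% of all tested genes called higher. At an unadjusted p under 0.05 they had 4, 3 and 3 higher genes, in the same order, against 14.0% of all tested genes. Of 11 genes of resident-type macrophages, 1 rose: Folr2, the folate receptor beta, read 4.26 and 4.34 in dbTg, against 2.93 and 2.70 in WT (difference 1.49, adjusted p = 0.0265). The median of that list was 0.56. Of 9 tested monocyte genes, 1 rose: Plac8, a small cysteine-rich protein, read 3.30 and 3.43 in dbTg, against 1.26 and 1.51 in WT (difference 1.98, adjusted p = 0.0117). The WT mean of Plac8, 1.38, was also under the filter level, and without the filter it was still called (adjusted p = 0.0136). Its list had a median of 0.046. Of 11 genes of lipid-laden and repair macrophages, 1 rose: Cd63, a tetraspanin of late endosomes that many cells express, read 8.17 and 8.16 in dbTg, against 7.12 and 6.93 in WT (difference 1.14, adjusted p = 0.0198). The median there was 0.26, beside 0.089 over all tested genes.

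Markers of lymphocytes, natural killer, dendritic and mast cells had 0 calls. Of 12 named T cell genes, 8 were tested, with a median of 0.15 and 3 higher at an unadjusted p under 0.05. Il7r, the interleukin-7 receptor, differed by 0.72 (adjusted p = 0.127) and Cd8b1 by 0.62 (adjusted p = 0.168). Of 7 B cell genes, 3 were tested (median -0.32, with 1 gene at an unadjusted p under 0.05, Blk), with values of -0.50 for Blk and Cd79b at -0.32. Of 9 natural killer cell genes, 1 was tested, Nkg7 (0.26, adjusted p = 0.596). Of 8 dendritic cell genes, 7 were tested (median -0.051, 0 at an unadjusted p under 0.05), with Itgae at -0.30 and Cd209a at 0.44 (0.0092 with the mean of its probe sets). Of 9 mast cell genes, 2 were tested (0 at an unadjusted p under 0.05), Cpa3 at 0.12 and Kit at 0.0093. The mean level of the lists on single arrays was 1.77 and 1.83 in dbTg, against 1.53 and 1.67 in WT, for T cells, and 1.33 and 1.34 in dbTg, against 1.46 and 1.41 in WT, for B cells. For the 40 members it was 3.43 on each dbTg array, against 2.33 and 2.12 in WT. These means include genes below the filter level and compare genotypes within a list, not one list with another.

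Marker lists of other tissue compartments also differed between the mice, and their part in the members' differences was not tested. The mean level of 7 fibroblast genes was 6.22 and 6.28 in dbTg, against 5.61 and 5.51 in WT. Limma called 0 of them, with 4 higher at an unadjusted p under 0.05, and Dpt at 0.74 (adjusted p = 0.0542) and Col3a1 at 1.24 (adjusted p = 0.0601). Col3a1 differed by 1.57 without WT replicate 1, the higher WT array for it, and by 0.90 without WT replicate 2. The 5 adipocyte genes had mean levels of 4.05 and 3.83 in dbTg, against 2.63 and 2.76 in WT. Of these, 2 rose, the adipokine genes Adipoq (1.47, adjusted p = 0.0376) and Lep (1.31, adjusted p = 0.0443). That was 40% of the list, beside 38.5% of the tested members and 2.01% of all tested genes. At an unadjusted p under 0.05, 4 of the 5 adipocyte genes were higher, against 14.0% of all tested genes. Lep passed the filter through its dbTg arrays, with a WT mean of 1.26, and was not called without the filter (adjusted p = 0.0636). The 8 endothelial genes had mean levels of 3.70 and 3.82 in dbTg, against 4.21 and 4.38 in WT. None was called (4 lower at an unadjusted p under 0.05), with Cdh5 at -0.85 (adjusted p = 0.0929) and Kdr at -0.85 (adjusted p = 0.184). Of 5 tested genes of muscle stem cells, 1 rose, the myogenic factor gene Myf5 (1.12, adjusted p = 0.0397). At an unadjusted p under 0.05, 2 of the 5 were higher, Myf5 among them. Negative differences were seen for 3, and the median was -0.22. Myf5 too had a WT mean under the filter level, 1.19, and no call without the filter (adjusted p = 0.0578). The red blood cell list had 1 tested gene, Bpgm, at -0.30 (adjusted p = 0.511). Runx1, Irf8, Folr2, Plac8, Cd63, Adipoq, Lep and Myf5 all lost their calls when either dbTg array was left out. Irf8, Folr2, Adipoq, Lep and Myf5 also lost them after quantile normalization (adjusted p = 0.0523, 0.0532, 0.0651, 0.0651 and 0.0532). The fibre genes nearest to a call were Myh1 at 0.51 (adjusted p = 0.191) and Ckm at -0.36 (adjusted p = 0.360).

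**Figure D4:**
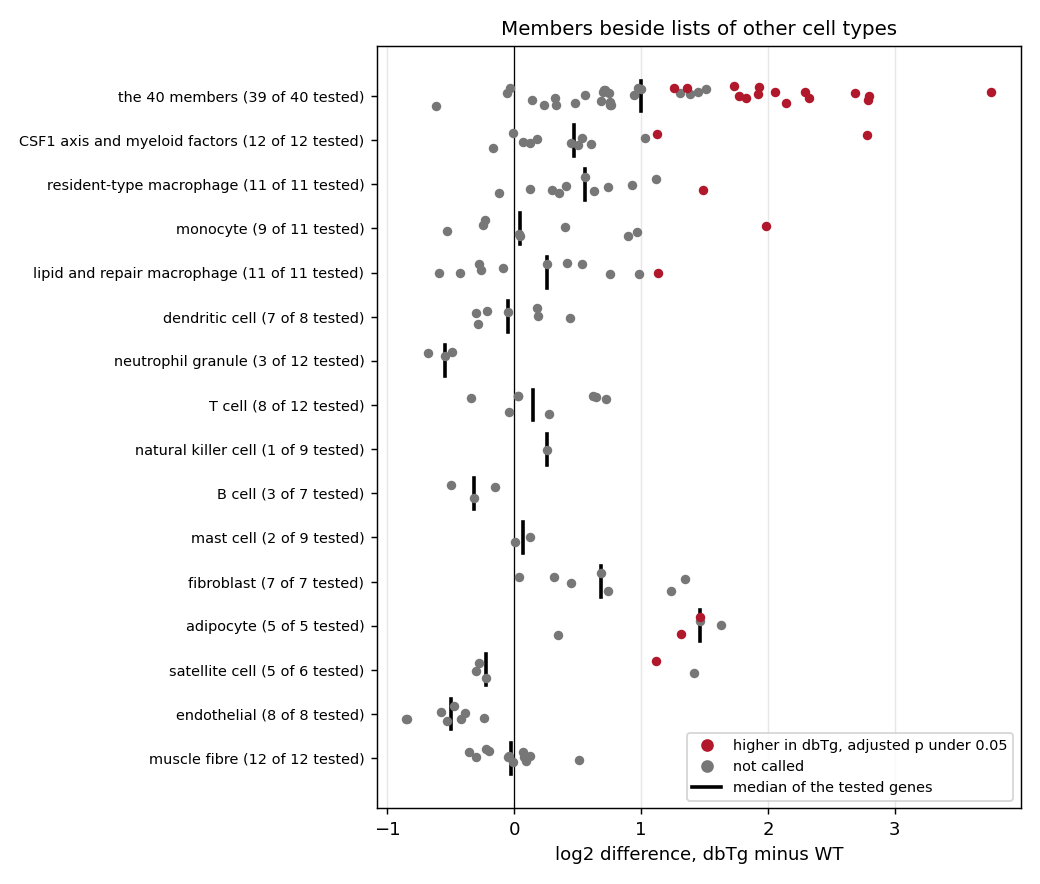
Log2 difference, dbTg minus WT (horizontal axis), of the tested members and of the tested genes of 15 other lists, 1 point per gene, red for an adjusted p under 0.05, with black bars for medians. Vertical scatter within a list has no meaning. The members' median is 1.00, against 1.46 for adipocyte genes and 0.68 for fibroblast genes. The median is 0.15 for T cell genes, -0.50 for endothelial genes and -0.023 for muscle fibre genes.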

How the data were processed

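Total RNA from quadriceps was measured on Affymetrix whole-transcript arrays, 1 per animal. The authors deposited log2 RMA values from Affymetrix Expression Console, as the submitters' processing notes and labels record. RMA removes background, brings the arrays to common quantiles and combines the probes of a set. The sources used here give no version and no annotation build. Of 41345 probe sets, 23521 carried exactly 1 symbol, and the brightest per gene gave 22180 genes. Genes whose mean over the 4 arrays reached its 40th percentile, 1.48, were tested with limma 3.58.1 in R 4.3.3 (eBayes with an intensity trend, 2 residual and 4.76 prior degrees of freedom). Tests were two-sided, adjusted over 13308 genes at 0.05. The procedure was tested on simulated data. An exact permutation test of 2 arrays against 2 cannot give a p below 0.333.

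Members and lists were chosen with earlier results of these data known, so counts and medians are descriptions. All members are named. Each other list is represented by up to 4 called genes, or by its 2 lowest p-values. Replicate numbers coincide with sex and do not mark the same animal. Other settings tried were 1 array left out, quantile normalization, median centring, a block for replicate number, no filter or one at the 60th percentile, averaged probe sets, robust eBayes, and eBayes with no trend. Listed genes with no symbol of their own on a probe set were not analysed here.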

Additional observations from a re-analysis of the deposited data

Results flagged for a closer look

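For 4 members the male and the female pair differed in sign. Each pair holds 1 dbTg and 1 WT animal, so the difference between the pairs was not tested. Cd163 differed by 1.45 in the male pair and -0.077 in the female pair. Aif1 had the reverse order, with -0.061 for males and 1.17 for females. Cd86 differed by -0.40 between the males and 0.33 between the females. S100a9 differed by -0.60 between the males and 0.49 between the females.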

How the results depend on the processing

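The members' median log2 difference of 1.00 stayed between 0.97 and 1.19 when 1 array was left out, and was 1.48 over the 26 members above a filter at the 60th percentile, which tests fewer genes. The 15 member calls numbered 0 to 22 when 1 array was left out: all 15 were kept without either WT array, and none without either dbTg array, where the lone dbTg array is assumed to vary like the WT pair. Over all genes these fits called 4 to 610 higher and 0 to 156 lower, against 267 and 27 with all arrays. With the replicate number as a block 6 members were called (Cd84, Cd68, Lyz2, Mpeg1, Ptprc and Cd53), among 63 higher and 2 lower genes. Adgre1, Mrc1, Clec7a, Ms4a7, Ly86, Lgals3, Itgam, Cd52 and Dock2 lost their calls in that fit, at adjusted p from 0.0515 (Mrc1 and Ms4a7) to 0.0943 (Dock2). The replicate number coincides with sex and does not mark the same animal, so the block is not a pairing. The deviations of same-numbered arrays correlated at 0.049 over all tested genes, which cannot decide whether sex matters for single genes. Quantile normalization kept 9 of the 15, among 120 higher and 7 lower genes. Without an intensity filter 165 genes were higher and 7 lower, and 11 of the 15 were kept. At the 60th percentile 44 genes were lower, and 14 with eBayes without a trend. The cause of these shifts was not tested. Over all alternatives, the adjusted p of Cd68 ran from 4.34e-05 to 0.0909 and that of Ly86 from 0.000147 to 0.346. Signs reversed for uncalled genes near 0 when 1 array was left out. Cd14 ran from -0.093 (without dbTg replicate 1) to 0.75. Cd86 ran from -0.33 to 0.26, with 0.037 without dbTg replicate 1. S100a9 ran from -0.45 to 0.34, with 0.092 without dbTg replicate 1, Cpa3 from -0.042 to 0.29, and Kit from -0.11 to 0.13, with -0.10 without dbTg replicate 2. Signals near the filter level limit what can be seen for the neutrophil and lymphocyte genes.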
